A study of Mus musculus with 4 samples.

Results

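The genes described here are the D-type cyclins Ccnd1, Ccnd2 and Ccnd3, the MYC genes Myc and Mycn, and the CDK inhibitors Cdkn1a, Cdkn1b, Cdkn1c, Cdkn2b and Cdkn2c. They were taken by gene name from the array design, where 10 of 10 were found, with 15 of the 39429 probes. All 10 were among the 22461 genes tested, and 14 of their 15 probes were among the 29943 probes tested. The tissue was the E12.5 ureter of wild-type embryos of the NMRI mouse stock, cultured as an explant over 18 h either in IWP-2 at 10 µM or, as control, in its solvent DMSO at 2 parts in 1000. IWP-2 inhibits Porcupine, the acyltransferase that WNT ligands need for their secretion. The treatment is thus not confined to the ureteric epithelium (UE) or to the ureteric mesenchyme (UM). The study found the WNT target Axin2 only in the UM of control embryos, so the response need not be equal in both. Each of 4 two-colour arrays held RNA of a pool of treated ureters in one channel and of a control pool in the other, with the treated RNA in red on arrays 1 and 3 and in green on arrays 2 and 4. The sex of the embryos was not determined, the cultures for arrays had no serum, and the RNA was amplified before labelling. The labels number the arrays as replicates but do not say how the pools were separated, and p-values rest on the spread between these arrays, which may be technical. The methods of the study count the arrays of this stage as separate, while its results speak of fewer arrays for each stage. If arrays were dye swaps of the same pools, the number of independent pools would be smaller than the n given here and the p-values would be too small. In whole explants, fewer cells of a type and less RNA per cell cannot be told apart.

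D-type cyclins bind CDK4 and CDK6, and the active kinase phosphorylates the retinoblastoma protein and its relatives, which releases E2F factors and lets a cell pass from G1 into S phase. MYC and MYCN are transcription factors that pair with MAX and drive growth and cell cycle entry. The Cip/Kip inhibitors (Cdkn1a, Cdkn1b and Cdkn1c, for p21, p27 and p57) bind cyclin-CDK complexes, while the INK4 inhibitors (Cdkn2b and Cdkn2c, for p15 and p18) bind CDK4 and CDK6 themselves. Ccnd1 and Myc are textbook targets of β-catenin with TCF/LEF factors in other tissues, and Mycn is a known regulator of growth in the embryonic kidney.

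The array reads each gene through probes of 60 bases, and the first 30 bases are given for the probes on which the results for cyclins, MYC genes and Cip/Kip inhibitors turn, since they show which sequence was measured. Positions are those of the deposited files, on the mm9 build, and they were not placed in exons, as an annotation of mm9 was not used here.
Ccnd1, chr7:152116202-152116261, minus strand: ttaatctgttaggttctagtgttccgtctt
Ccnd2, chr6:127098696-127098755, minus strand: aagagaccatcccgctgactgcggaaaagc
Myc, chr15:61821417-61821476, plus strand: aacagttgaaacacaaactcgaacagcttc
Mycn, chr12:12943193-12943252, minus strand: tgtactaattcctacacggcctgtatactt
Cdkn1a probe 1, chr17:29227986-29228045, plus strand: aatggagacagagaccccagataattaagg
Cdkn1a probe 2, chr17:29235299-29235358, plus strand: tggggtagtttccatagtgacccgggtcct
Cdkn1a probe 3, chr17:29237377-29237436, plus strand: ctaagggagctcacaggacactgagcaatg
Cdkn1c, chr7:150644753-150644812, minus strand: cgtagagcagcccacggttttgtggaaatc

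Ccnd1 and Ccnd2 were lower with IWP-2 by almost the same amount, to 0.583 and 0.585 of the control, while Ccnd3 did not pass the test. Myc and Mycn were lower as well, to 0.704 and 0.746 of the control. Among the inhibitors Cdkn1a was 1.32-fold higher and Cdkn1c was lower, to 0.875 of the control, and Cdkn1b, Cdkn2b and Cdkn2c did not pass. In all, 5 of the 10 genes were lower, against 15.0% of all genes tested, and 1 of the 10 was higher, against 18.1% of all genes. Together this was 6 of 10, where the background of genes called in either direction was 33.1%. The median log2 ratio of the 10 genes was -0.11, and that of all genes 0.00. All values are log2 ratios of IWP-2 over control, given as mean ± SD of 4 arrays, and adjusted p is that of limma after Benjamini-Hochberg correction over all genes tested, with 0.05 as the threshold.

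**Figure D1:**
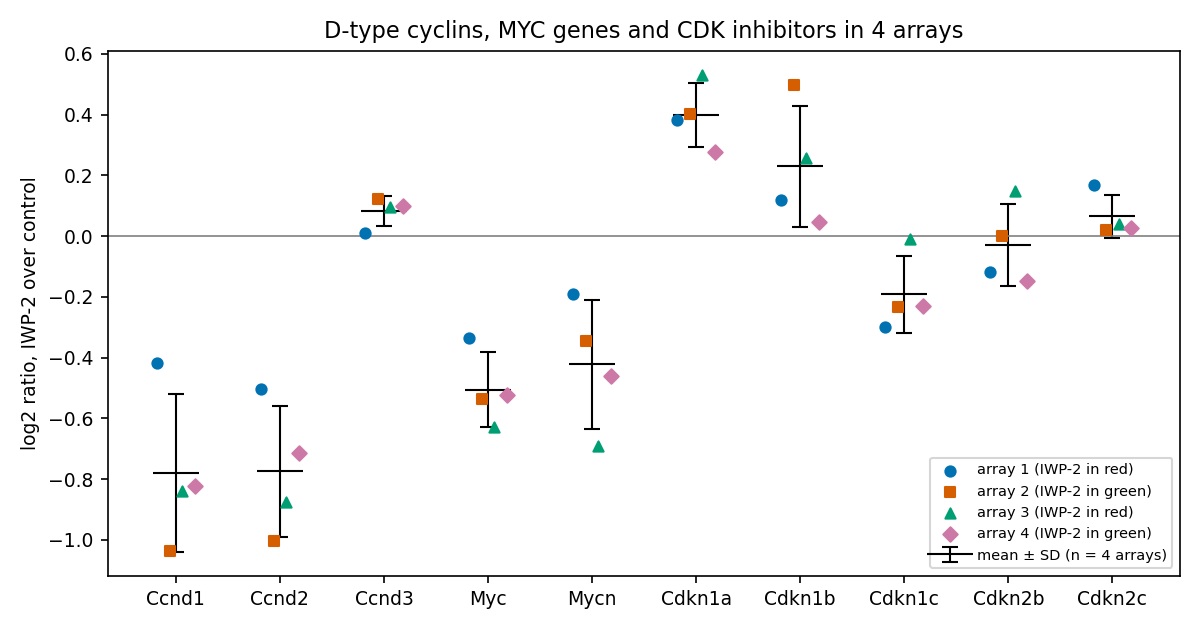
Log2 ratio of IWP-2 over control (y axis) for the 10 genes (x axis) on each of the 4 arrays (symbols), with the mean ± SD as black bars. Ccnd1, Ccnd2, Myc and Mycn lie below 0 on each array with array 1 nearest to 0, and Cdkn1a lies above 0 on each array.

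Ccnd1 gave log2 ratios of -0.42, -1.04, -0.84 and -0.82 on arrays 1 to 4. All arrays were below 0, and array 1 gave the smallest fall. The mean was -0.78 ± 0.26 (SD, n = 4), a 1.72-fold lower level, with a 95% confidence interval of -0.96 to -0.60 and adjusted p = 0.000885. This size was above that of 98.5% of all genes tested. With the treated RNA in red the mean was -0.63 and with the treated RNA in green -0.93, and the dye term of the fit had an unadjusted p = 0.0916 in limma.

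Ccnd2 gave -0.504, -1.004, -0.875 and -0.713 on arrays 1 to 4. It followed the order of Ccnd1 closely, with array 1 again nearest to 0 and array 2 farthest from it. The mean was -0.77 ± 0.22 (SD, n = 4, confidence interval -0.96 to -0.59, adjusted p = 0.000899). Within an array Ccnd1 and Ccnd2 differed by 0.09, -0.03, 0.04 and -0.11, with a mean difference of -0.01 ± 0.09 and no common direction (exact two-sided sign-flip permutation p = 1 over 4 arrays).

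Ccnd3, the D-type cyclin best known from blood cells, gave 0.01, 0.12, 0.10 and 0.10 with the brighter of its 2 probes, at chr17:47736579-47736638. These values were close to 0 on all arrays. The mean of 0.08 ± 0.05 did not pass (confidence interval -0.01 to 0.18, adjusted p = 0.162). Its other probe, at chr17:47736267-47736326, gave 0.04, -0.04, 0.07 and 0.03. Both probes of Ccnd3 thus lay near 0 on each array. The difference of Ccnd1 minus Ccnd3 was -0.43, -1.16, -0.94 and -0.92 on arrays 1 to 4, and that of Ccnd2 minus Ccnd3 was -0.51, -1.13, -0.97 and -0.81. Both differences had the same sign on 4 of 4 arrays, with means of -0.86 ± 0.31 and -0.86 ± 0.26. In the exact permutation test each reached the smallest p that 4 arrays allow, 2 of 16 sign patterns, which lies above 0.05. After adjustment over the 8 pairs of genes compared, the exact p was 0.25.

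Myc gave -0.33, -0.54, -0.63 and -0.52. The arrays lay close together, with array 1 nearest to 0. The mean was -0.51 ± 0.12 (SD, n = 4, confidence interval -0.64 to -0.37, adjusted p = 0.00137), and the dye order made little difference, with -0.48 for treated red and -0.53 for treated green.

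Mycn gave -0.19, -0.35, -0.69 and -0.46. All arrays were below 0, but they were spread more widely than those of Myc, from array 1 to array 3. The mean was -0.42 ± 0.21 (confidence interval -0.62 to -0.23, adjusted p = 0.00992). Myc fell more than Mycn on 3 of 4 arrays, with a mean difference of -0.08 ± 0.11, which the exact permutation test did not separate from 0 (p = 0.25, adjusted p = 0.333 over the 8 pairs).

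The signal behind these ratios was well above background for the cyclins and MYC genes. Over the control channels the raw intensity was 14820 to 37280 for Ccnd1, 28370 to 67150 for Ccnd2, 3272 to 7235 for Myc and 13710 to 35570 for Mycn. After loess and Aquantile normalisation the log2 channel level of Ccnd1 was 14.37 to 14.53 with DMSO and 13.46 to 13.95 with IWP-2. That of Ccnd2 was 15.29 to 15.69 with DMSO and 14.55 to 14.87 with IWP-2. That of Myc was 12.13 to 12.35 against 11.71 to 11.80, and that of Mycn 14.25 to 14.54 against 13.84 to 14.06. For these 4 genes the lowest control channel was above the highest treated channel. Over all 10 genes, the channels of both treatments did not overlap for 6, against 22.5% of all genes tested. The 6 are the same genes that passed the test, and both statements rest on the same arrays. Among them Cdkn1a (9.71 to 10.09 with DMSO, 10.1 to 10.49 with IWP-2) was only barely apart. The same held for Cdkn1c (16.52 to 16.63 with DMSO, 16.3 to 16.51 with IWP-2). Levels of different probes depend on the probe and were not set against each other.

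**Figure D2:**
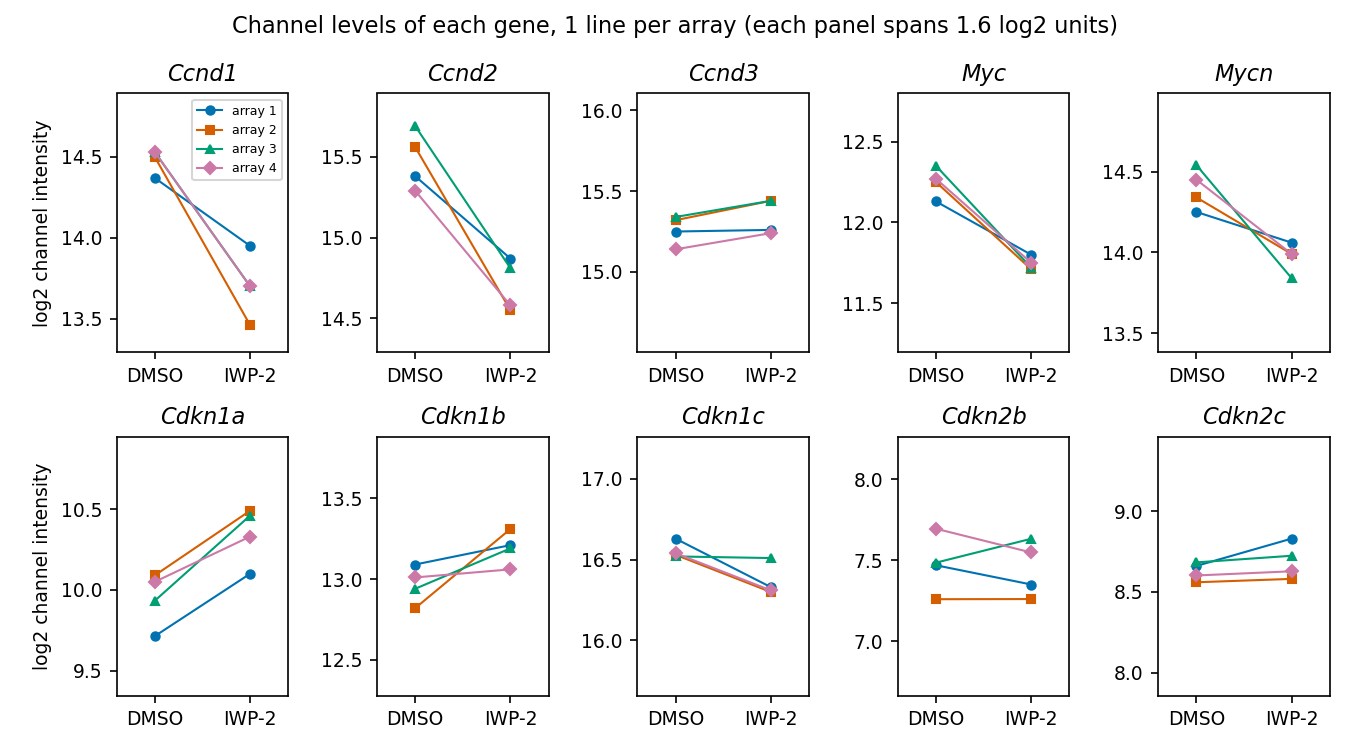
Log2 channel intensity after loess and Aquantile normalisation (y axis) with DMSO and with IWP-2 (x axis) for each gene, with 1 line per array, and each panel spanning 1.6 log2 units. The lines of Ccnd1, Ccnd2, Myc and Mycn fall on each array, from control levels of 14.37 to 14.53 to treated levels of 13.46 to 13.95 for Ccnd1, while those of Ccnd3, Cdkn2b and Cdkn2c stay nearly level.

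Cdkn1a, the gene of p21 and a classical target of p53, was measured by 3 probes. Probe 3, the brightest and the one that stood for the gene, gave 0.38, 0.40, 0.53 and 0.28. All arrays were above 0 and the spread was small. The mean was 0.40 ± 0.11 (SD, n = 4, confidence interval 0.29 to 0.51, adjusted p = 0.00169).

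Probe 2 of Cdkn1a gave 0.38, -0.02, 0.31 and 0.19, and probe 1 gave 0.07, -0.29, -0.04 and -0.22. Probe 2 thus rose on 3 of 4 arrays, and probe 1 was below 0 on 3 of 4. Across all probes tested, where 32.7% were called, probe 2 passed with a mean of 0.22 ± 0.18 (limma adjusted p = 0.0160) and probe 1 did not, with -0.12 ± 0.16 (limma adjusted p = 0.0691). In the array design probe 1 carries the identifier of a RefSeq transcript other than that of probe 3. It was dim, with raw intensities of 48.1 to 123 in the control channels, and was well above background with IWP-2 on 3 of 4 arrays. The 1.32-fold rise is that of probe 3 alone, and the 3 probes did not give the same change. With the mean of the 3 probes the gene was at 0.16 and still passed (limma adjusted p = 0.0166). As the offset of the background correction draws ratios of dim probes towards 0, the sizes for probes 1 and 2 may be understated, which was not tested.

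Cdkn1b, the gene of p27, gave 0.12, 0.50, 0.26 and 0.05 with the brighter of its 2 probes, at chr6:134875424-134875483. All values were above 0, and array 2 was far above array 4. The mean of 0.23 ± 0.20 (confidence interval 0.05 to 0.41) had an adjusted p = 0.0607 and did not pass, and leaving out 1 array moved it from 0.12 without array 2 (limma adjusted p = 0.193) to 0.34 without array 4 (limma adjusted p = 0.00425). The dimmer probe, at chr6:134873606-134873665, gave 0.14, 0.05, -0.23 and -0.10, with no common direction and a mean of -0.03 ± 0.16, and the mean of both probes was 0.098 (limma adjusted p = 0.238).

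Cdkn1c, the gene of p57 and an imprinted inhibitor, gave -0.30, -0.23, -0.01 and -0.23. It was below 0 on each array, with array 3 practically at 0. The mean was -0.19 ± 0.13 (confidence interval -0.33 to -0.06, adjusted p = 0.0393). Its probe was very bright, with raw intensities of 63360 to 168000 in the control channels, and had no saturated spot. The call was lost under 7 of the 18 alternatives with a test, among them leaving out array 1 (-0.12, adjusted p = 0.146), array 2 (adjusted p = 0.0839) or array 4 (adjusted p = 0.0815).

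Within each array Cdkn1a and Cdkn1b lay above Cdkn1c, but the order of Cdkn1a and Cdkn1b was not the same on all arrays. Cdkn1a lay above Cdkn1c by 0.68, 0.64, 0.54 and 0.50 on arrays 1 to 4, a mean difference of 0.59 ± 0.08. Cdkn1b lay above Cdkn1c by 0.42, 0.73, 0.27 and 0.27, a mean difference of 0.42 ± 0.22. Both differences had the same sign on 4 of 4 arrays, again at the smallest p that the exact permutation test allows (adjusted p = 0.25 over the 8 pairs). Cdkn1a lay above Cdkn1b on 3 of 4 arrays (0.17 ± 0.18, exact permutation p = 0.25).

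Cdkn2b, the gene of p15 and a known target of TGFβ signalling, gave -0.12, 0.00, 0.15 and -0.15 with its probe at chr4:88952276-88952335. The values lay on both sides of 0. The mean of -0.03 ± 0.13 did not pass (confidence interval -0.17 to 0.11, adjusted p = 0.728). The gene was dim, with raw intensities of 106 to 257 in the control channels, and its probe at chr4:88952720-88952779 was well above background on 0 of 4 arrays with either treatment and was not tested.

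Cdkn2c, the gene of p18, gave 0.17, 0.02, 0.04 and 0.03 (chr4:109333508-109333567). Only array 1 lay away from 0. The mean of 0.06 ± 0.07 did not pass (confidence interval -0.04 to 0.16, adjusted p = 0.281). Cdkn2b and Cdkn2c did not differ in a common direction (-0.09 ± 0.17, exact permutation p = 0.375). The offset draws the ratios of these dim probes towards 0, so that the intervals of Cdkn2b and Cdkn2c give no firm bound on their change.

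**Figure D3:**
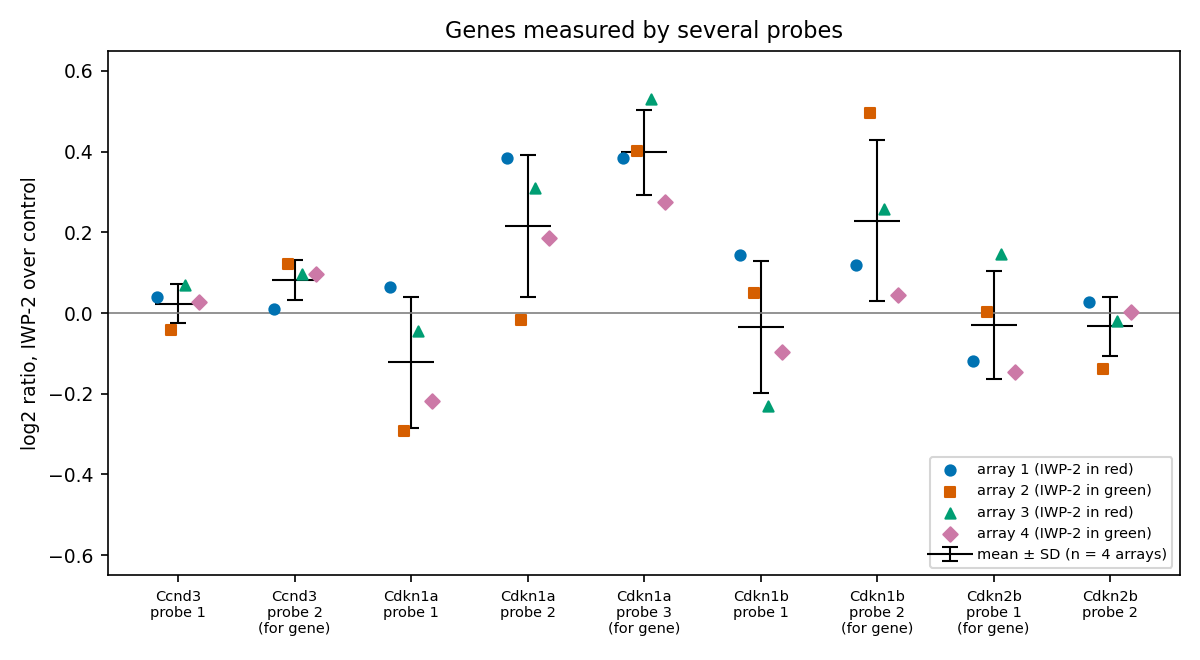
Log2 ratio of IWP-2 over control (y axis) for each probe of Ccnd3, Cdkn1a, Cdkn1b and Cdkn2b (x axis, numbered by position on the chromosome), with arrays as symbols and mean ± SD as black bars. The probe used for the gene is marked, and the means of the 3 Cdkn1a probes run from -0.12 to 0.40.

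Promoter windows were read beside these values because 2 of the genes that moved, Mycn and Cdkn1a, have one in the RefSeq table (build GRCm38.p6), which gives 250 bases before to 50 bases after a start. Of the 10 genes 6 had a window, with 9 windows in all, namely Ccnd3, Mycn, Cdkn1a, Cdkn1b, Cdkn2b and Cdkn2c. Over both strands 7 motifs were searched in these and in all 32851 windows of this length. The TCF/LEF spellings CTTTGAT and CTTTGTT, held by 3.73% and 5.85% of all windows, were in none of the 9 windows. Ccnd1, Ccnd2, Myc and Cdkn1c had no window, so their promoters were not searched. With shares this small, absence from 9 windows says little. The E-box CACGTG, to which MYC with MAX binds, was in a Cdkn2c window and in 7.15% of all. Of the E2F spellings, TTTCCCGC (1.07% of all windows) was in none of the 9, while TTTGGCGC (0.514%) and TTCGCGC (1.59%) were in the window of Mycn. The sequence ACATGT, one spelling of the core of a p53 half-site, was in a window of Cdkn1a and in 5.28% of all. These are matches of letters only.

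In the 250 bases before the Mycn start (chr12:12941837-12942086, minus strand, GRCm38.p6), capitals mark TTTGGCGC, which occurs 2 times, beginning 183 and 168 bases before the start. TTCGCGC overlaps the first of these on the other strand. In the 250 bases before a start of Cdkn1a (chr17:29090729-29090978, plus strand, GRCm38.p6), capitals mark ACATGT, which occurs 2 times, beginning 49 and 39 bases before the start. This start was not matched to the transcript that any Cdkn1a probe reads.
Mycn: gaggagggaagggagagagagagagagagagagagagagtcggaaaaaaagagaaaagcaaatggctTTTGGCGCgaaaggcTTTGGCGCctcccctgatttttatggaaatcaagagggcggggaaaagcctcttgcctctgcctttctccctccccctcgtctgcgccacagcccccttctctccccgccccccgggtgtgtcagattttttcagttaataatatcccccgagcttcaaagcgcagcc
Cdkn1a: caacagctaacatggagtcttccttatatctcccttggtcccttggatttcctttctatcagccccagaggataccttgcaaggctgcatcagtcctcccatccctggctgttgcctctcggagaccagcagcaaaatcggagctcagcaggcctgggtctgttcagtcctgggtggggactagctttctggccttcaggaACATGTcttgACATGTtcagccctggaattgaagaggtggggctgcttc

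Around these regulators, G1 kinases, E-type cyclins, pocket proteins and other regulators of the G1 step, further CDK inhibitors among them, were read as a list of 17 genes. Of these, 16 were tested and Cdkn2a was not. Of the 16, 8 were lower and 1 was higher, with a median of -0.14 against 0.00 over all genes. In either direction 56.25% of the list were called, against 33.1% of all genes tested, of which 15.0% were lower and 18.1% higher. Without array 3, 4 were lower and 0 higher, and Rbl2, the gene that was higher, also lost its call without array 2 and without array 4. The largest falls were those of Skp2, the F-box protein that marks p27 for degradation, at -0.48 ± 0.17, the E-type cyclins Ccne1 at -0.45 ± 0.17 and Ccne2 at -0.39 ± 0.03, and Rbl1, the gene of the pocket protein p107, at -0.31 ± 0.09. Rbl2, for the pocket protein p130, was higher (0.21 ± 0.14). The partners of the D-type cyclins, named for this role after their values were seen, changed less than Ccnd1 and Ccnd2, with Cdk4 at -0.19 ± 0.11 (limma adjusted p = 0.0192) and Cdk6 at -0.20 ± 0.23 (limma adjusted p = 0.0185, below 0 on 3 of 4 arrays). Cdk6 gave -0.30, -0.05, -0.48 and 0.02 on arrays 1 to 4, with a dye term of -0.18. Its fall thus lay mainly on the arrays with the treated RNA in red.

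Of 10 E2F and DP factors, of which the classical E2Fs are held by pocket proteins while E2f6, E2f7 and E2f8 are not, 4 were lower and 1 was higher, with a median of -0.14, and without array 1 or without array 2 none was higher. E2f1 (-0.44 ± 0.23), E2f8 (-0.38 ± 0.20), E2f5 (-0.29 ± 0.05) and Tfdp1 (-0.19 ± 0.11) were lower and E2f7 was higher (0.17 ± 0.06). Among 16 genes of S phase and mitosis 12 were lower and 0 higher, with a median of -0.39. In either direction 50% of the E2F and DP list and 75% of the S phase and mitosis list were called, against 33.1% of all genes tested. Medians of the list on arrays 1 to 4 were -0.32, -0.28, -0.47 and -0.33. The largest falls were in genes for the licensing of replication origins, Cdc6 (-0.61 ± 0.15), Mcm4 (-0.52 ± 0.14), Mcm7 (-0.52 ± 0.12) and Mcm3 (-0.50 ± 0.04). The 4 that did not pass were the proliferation marker Mki67 (-0.07 ± 0.19) and the cyclins Ccna2 (-0.20 ± 0.17), Ccnb1 (-0.01 ± 0.12) and Ccnb2 (0.10 ± 0.14).

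MYC needs MAX, and MXD and MNT proteins compete for it. Of 9 genes tested in this list 2 were lower, Mxd3 (-0.40 ± 0.09) and Mxd4 (-0.13 ± 0.12), and the median was 0.01. Under 11 of the 18 alternatives, leaving out each array among them, 1 gene was lower, and 2 of 9 stands against 15.0% of all genes that were lower. Max itself, named after its value was seen, was at 0.01 ± 0.05. Of 16 known MYC target genes 8 were lower and 1 was higher, with a median of -0.11. In either direction this was 56.25% of the targets, against 33.1% of all genes tested. Without array 1, array 3 or array 4, 5 were lower, and without array 3, 2 were higher. The largest falls were in genes of ribosome and polyamine synthesis, Ddx21 (-0.55 ± 0.13), Srm (-0.32 ± 0.15), Nop58 (-0.30 ± 0.07) and Nop56 (-0.29 ± 0.06). Odc1, for the first enzyme of polyamine synthesis and an established target as well, was higher (0.57 ± 0.11).

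Cdkn1a was set beside 14 other p53 target genes. Of these 2 were higher, Pmaip1 (0.73 ± 0.20) and Bbc3 (0.28 ± 0.11), which encode the BH3-only proteins NOXA and PUMA. A further 3 were lower, Aen (-0.38 ± 0.07), Phlda3 (-0.30 ± 0.10) and Eda2r (-0.23 ± 0.16). Called in either direction were thus 35.7% of the list, near the 33.1% of all genes tested. Over all genes 18.1% were higher and 15.0% lower. The list had a median of 0.06, and Mdm2, the feedback inhibitor of p53 and named after its value was seen, was at 0.06 ± 0.03 (limma adjusted p = 0.285).

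Cdkn1c was set beside 12 imprinted genes, of which 4 were lower and 4 higher (2 higher without array 2), with a median of 0.04. In either direction 66.7% of the list were called, against 33.1% of all genes tested. The neighbours of Cdkn1c in the imprinted cluster went both ways, with Phlda2 (-0.61 ± 0.19) and Kcnq1ot1 (-0.51 ± 0.32) lower and Slc22a18 (0.27 ± 0.09) and Kcnq1 (0.16 ± 0.06) higher. Kcnq1ot1 gave -0.26, -0.88, -0.22 and -0.68 on arrays 1 to 4, with a dye term of 0.27. Its fall was larger on the arrays with the treated RNA in green. Phlda2 had a dye term of 0.15. Of the genes outside the cluster, Mest (-0.40 ± 0.18) and Igf2 (-0.28 ± 0.14) were lower, and Dlk1 (0.52 ± 0.08) and Meg3 (0.24 ± 0.14) were higher.

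**Figure D4:**
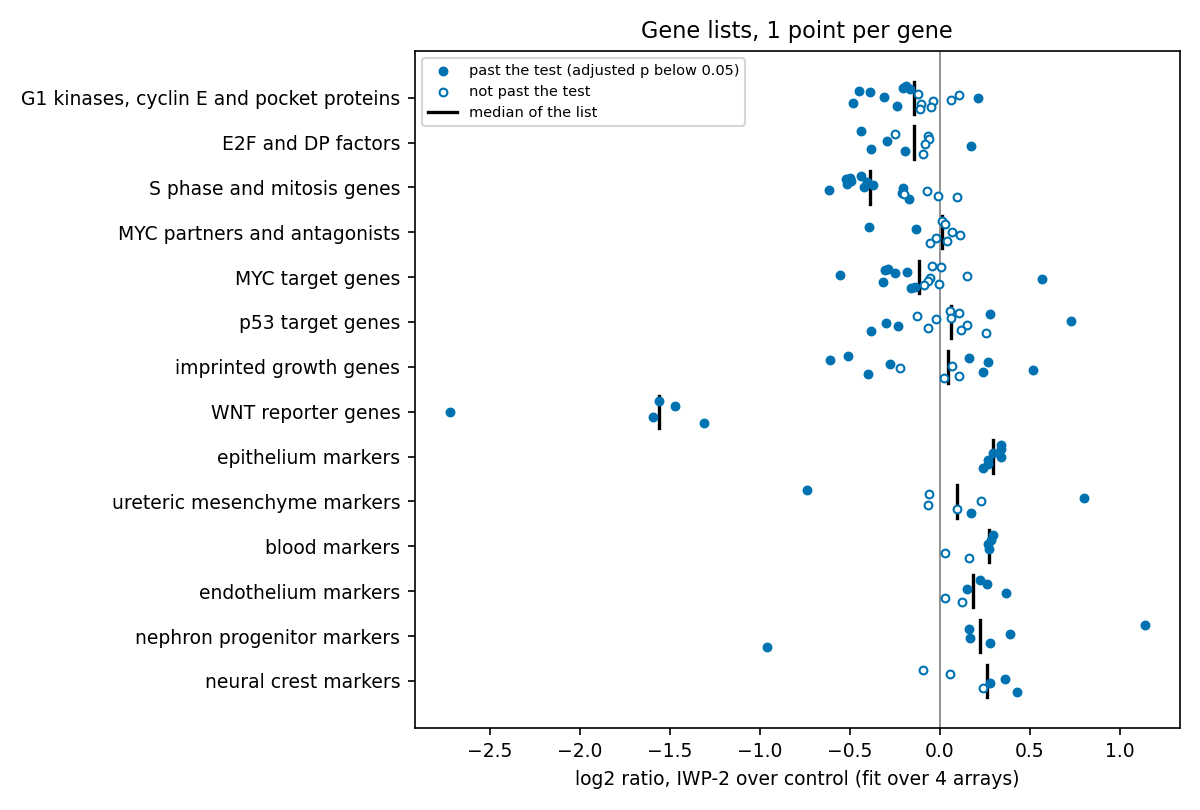
Log2 ratio of IWP-2 over control (x axis) for each gene of 14 lists (y axis), with filled points for genes past the test, open points for the others and a black bar at the median of the list. The genes of S phase and mitosis lie mostly below 0 with a median of -0.39, and so do the MYC targets, with 13 of 16 below 0. The p53 targets lie on both sides of 0, and the epithelium markers all lie above 0.

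The change in WNT signalling was read from 5 reporter genes, chosen with earlier results of these data known. All 5 were lower, against 15.0% of all genes tested. Among them Axin2 was at -1.56 ± 0.09, Sp5 at -2.72 ± 0.28, Nkd1 at -1.59 ± 0.08 and Lef1 at -1.47 ± 0.16. Ccnd1, Ccnd2, Myc and Mycn thus changed less than each reporter. Array 1, where Ccnd1 and Ccnd2 fell least, also gave the smallest fall of 3 of the 5 reporters. Axin2 gave -1.48 there against -1.68, -1.57 and -1.53, Sp5 -2.39 against -3.07, -2.78 and -2.66, and Tcf7 -1.26 against -1.35, -1.35 and -1.28. The other reporters went otherwise. Lef1 fell least on array 3 (-1.338, against -1.348 on array 1) and Nkd1 on array 4 (-1.485, against -1.586 on array 1). Whether the WNT block differed between arrays was not tested.

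Tissue markers moved as well. Their counts stand beside 18.1% of all genes tested that were higher and 15.0% that were lower. All 7 epithelium markers were higher, by 0.24 to 0.34, and their summed log2 level was 17.46 to 17.58 with DMSO and 17.64 to 17.96 with IWP-2. Of 7 markers of the UM, 1 was lower (Tbx18, -0.74 ± 0.26) and 2 were higher (Pdgfrb, 0.80 ± 0.07, and Dcn, 0.17 ± 0.07), with summed levels of 18.56 to 18.69 and 18.62 to 18.80. Higher were also 4 of 6 blood markers (summed levels 18.11 to 18.71 and 18.63 to 18.80), 4 of 6 endothelium markers (15.67 to 15.88 and 15.86 to 16.09) and 3 of 6 neural crest markers (15.01 to 15.39 and 15.06 to 15.64), and 5 of 6 nephron progenitor markers were higher and 1 lower (15.50 to 15.62 and 15.65 to 15.84). The call counts of some marker lists rest on single arrays or on the fit: blood fell to 2 without a dye term and to 1 with the 8 channels as separate samples, endothelium to 2 without array 3 or array 4, nephron progenitors to 3 without array 1 or array 3, and UM markers that were higher to 1 without array 2. Hbb-y, a blood marker, gave 0.61, -0.10, 0.73 and -0.14 and passed with the dye term although 2 of 4 arrays lay below 0. Every marker was well above background, so that none was at 0. Their part in the changes of the cell cycle regulators was not tested.

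**Figure D5:**
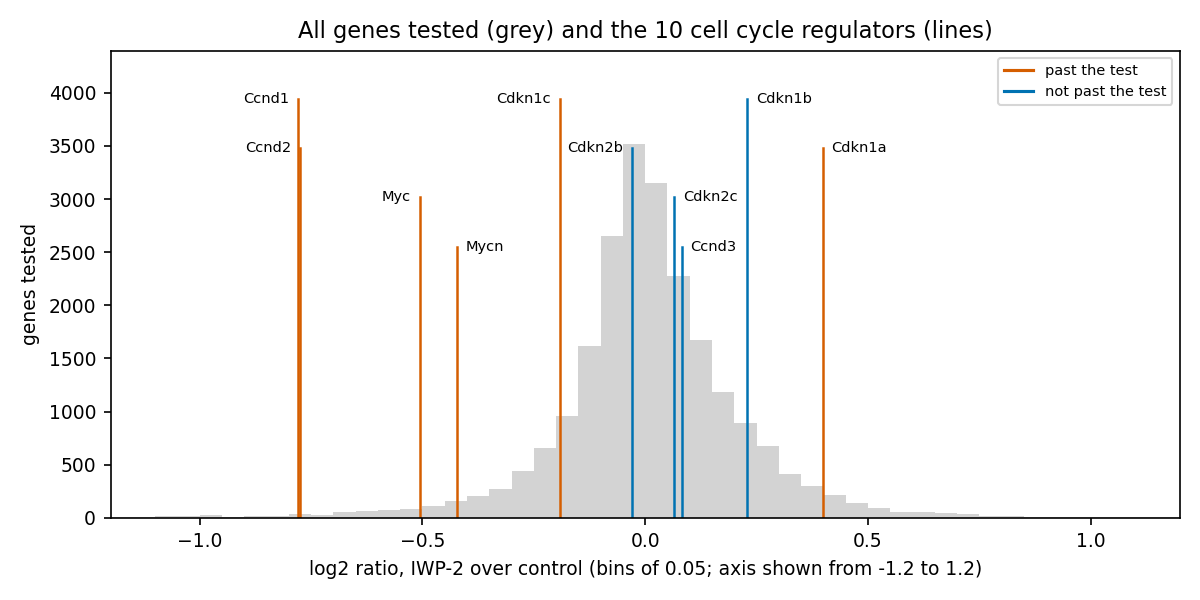
Number of genes tested (y axis) by log2 ratio of IWP-2 over control (x axis, bins of 0.05, shown from -1.2 to 1.2) as grey bars, with each of the 10 genes as a line, orange if past the test and blue if not. Ccnd1 and Ccnd2 at -0.78 and -0.77 lie in the lower tail, and Cdkn2b, Cdkn2c and Ccnd3 lie in the middle of all genes.

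Between pairs of arrays the Pearson r of the ratios ran from 0.625 to 0.831 across all genes tested, and genes are not independent replicates. The highest r were those of the pairs with the same dye order, arrays 1 and 3 (0.798) and arrays 2 and 4 (0.831). Pairs with opposite dye order gave 0.625 to 0.740. Median raw intensities of the gene spots were 368 to 711 in the control channels and 385 to 694 in the treated channels, and the share of probes well above background was 75.1% to 80.0% per channel. All 4 arrays share 1 slide and 1 scan.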

How the data were processed

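Ratios of IWP-2 over DMSO were analysed on 4 two-colour Agilent arrays. The authors scanned them and ran Agilent Feature Extraction 10.7.3.1, and the deposited files give raw mean and median background intensity for each spot and channel. A processed intensity and a log10 ratio of red over green are also deposited, and the log10 ratio served to check the direction (r of 0.730 to 0.783 across spots with the ratios used here). The series table, deposited by the authors, holds signed fold changes rounded to 1 decimal, treated here as a score, with normalisation not stated (r of 0.954 to 0.962 with the ratios used here). Its direction follows IWP-2 over control.

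Raw intensities were corrected with normexp (offset 50) over all spots and loess-normalised array by array (span 0.3) in limma 3.58.1 (R 4.3.3). Control spots and outlier-flagged spots were dropped, and the rest of the 4 spots of each probe were averaged. A probe was tested if more than 0.5 of its spots were well above background in 1 treatment on all 4 arrays, and the brightest probe stood for its gene. Fits used lmFit and eBayes with a dye term for each gene and Benjamini-Hochberg adjustment. Their p-values use the spread left after the dye term, moderated across genes by eBayes. The printed SD is that of the 4 ratios, so the p-values do not follow it directly. Differences between genes were tested by exact sign-flip permutation over the 4 arrays, two-sided. The array is the unit and holds both treatments, so the fits of ratios are paired by construction, and the alternative with 8 separate channels is not. Fits were tested on simulated data. The 10 genes, the gene lists and the motifs were chosen with earlier results of these data known. Of the lists, the text names genes past the test, at most the 4 largest in each direction, and marks the others. The study filtered by intensity and fold change and names no test for arrays. The number of arrays limits the precision. Alternatives were other background corrections, normalisations, filters, probe rules and fits, and leaving out each array.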

Additional observations from a re-analysis of the deposited data

Results flagged for a closer look

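Cdkn2c was singled out among 14 probes and genes examined, because its ratio on array 1 (0.17) stood apart from 0.02, 0.04 and 0.03 on the other arrays. The gap to the nearest array was 0.868 of the whole range, above Dixon's 95% critical value for 4 values. Chance singles out about 1 in 20 groups.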

How the results depend on the processing

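Of the 18 alternatives with a test, Ccnd1, Ccnd2, Mycn and Cdkn1a kept direction and call in 17 and Myc in all 18. The exception was the series table, with adjusted p of 0.0502, 0.0524, 0.0953 and 0.0904. Its values are rounded to 1 decimal and gave similar sizes (-0.77, -0.79, -0.45 and 0.37), and Cdkn2c passed there only (0.07, adjusted p = 0.00752). In these values 1 of the 10 genes was lower, and 2050 genes were lower and 1833 higher over all genes, against 3360 and 4069. With the 8 channels as separate samples and no replicate block, 2068 genes were lower and 2033 higher, and of the 10 genes 4 were lower and 1 higher. Without a dye term Cdkn1c had an adjusted p of 0.0513, with the 8 separate channels 0.0591, with the processed signals 0.0716 and with the values of the series table an adjusted p of 0.326. Leaving out 1 array gave 4 to 5 of the 10 genes lower and 1 to 2 higher, with Cdkn1b added without array 4. Over all genes it gave 2177 to 2811 lower, the lowest without array 3, and 2879 to 3348 higher. Cdkn2b lay between -0.096 and 0.037 and changed sign without array 1 (0.037) and without array 4 (0.0079). Median centring gave 3126 genes lower and 3120 higher, and under each scaling the median over all genes was from -0.01 to 0.01. Cdkn1a moved most with the mean of its probes, to 0.16. With the series table, 5 G1 genes, 1 E2F or DP gene, 7 S phase and mitosis genes and 5 MYC targets were lower, and 2 epithelium markers, 1 endothelium marker and 1 nephron progenitor marker were higher. With the 8 separate channels 4 epithelium markers were higher. The cause of these differences was not tested. A block for slide or scan was not run, because all 4 arrays share both.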

Other observations

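The spots of a probe agreed closely within an array. For Ccnd1 the SD between its spots on an array was 0.01 to 0.07, against 0.26 between arrays, and for Ccnd2 it was 0.01 to 0.03 against 0.22. For the dim probe 1 of Cdkn1a the SD between spots was 0.10 to 0.16, about as large as that between arrays (0.16). The dye term was largest for Ccnd1 (0.15) and between -0.04 and 0.08 for the other 9 genes.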
